A study of Mus musculus with 6 samples.

Results

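The genes of the mouse major histocompatibility complex (MHC, named H2 in the mouse) and of antigen presentation were examined in lung RNA. The list held every gene whose symbol starts with H2-, together with Cd74, Ciita, B2m, Tap1, Tap2 and Tapbp. It came to 49 of the 41388 genes in the count table, 43 with an H2- symbol and 6 named otherwise. Of these, 34 were assigned to class I and 14 to class II, and H2-Ke6 is an H2- symbol for an enzyme gene and no MHC chain. On the GRCm38 genome 46 of the 49 genes lie on chromosome 17, while B2m lies on chromosome 2, Ciita on chromosome 16 and Cd74 on chromosome 18.

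Lungs came from adult mice of 2 genotypes, collected 7 h after lights on (Zeitgeber time 7, ZT7). KO mice (B6.129S7-Zpbp2 tmZuk/Mmjax) lack the 5' part of Zpbp2, exons 1 to 3, in a C57BL/6J background, and WT mice were C57BL/6J from the same colony. The labels give 3 libraries of each genotype and the strain C57BL/6J for all of them. Zpbp2 had 20, 15 and 7 counts in WT1, WT2 and WT3 and 1, 0 and 0 counts in KO1, KO2 and KO3, as the labels have it.

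Class I molecules show peptides from inside the cell to CD8 T cells. Each is a heavy chain (H2-K1, H2-D1 and the Q, T and M genes) bound to beta-2 microglobulin (B2m), and it receives its peptide through the Tap1 and Tap2 transporter with the help of tapasin (Tapbp). Class II molecules show peptides from taken-up material to CD4 T cells. They are pairs of an alpha and a beta chain (H2-Aa with H2-Ab1, and an E alpha chain with H2-Eb1) that are guided by the invariant chain (Cd74), exchange their peptide on H2-DM under the control of H2-O, and are switched on by the coactivator Ciita. In lung, class I is made by nearly all cells, and class II by B cells, dendritic cells, macrophages and alveolar type 2 cells. The H2-b haplotype of C57BL/6 mice makes no E alpha chain.

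Total counts ranged from 59134950 to 71354388 per library, so that 3 counts, taken as the floor, stood for 0.0410 to 0.0514 CPM (the count relative to the library size as scaled with TMM). The libraries KO2 and KO3, whose difference was much closer to counting noise than that of other pairs among abundant genes, were counted as 1 sample, which leaves 3 WT samples against 2 KO samples. The study describes 3 KO and 3 WT mice, and the labels give each library an identifier of its own, but neither says how the animals were related. The number of calls depends on counting KO2 and KO3 as 1 sample, as given below. The p-values measure only the spread between these samples. WT3 and KO1 stood apart from the other libraries: the deviations of WT3 and KO1 from their genotype means correlated across genes (r = 0.85), and squamous epithelium markers summed to 4664 CPM in WT3 and 8926 CPM in KO1 but to at most 15.4 CPM in each other library. For erythroid markers the sum was 19088 CPM in KO2, 19832 CPM in KO3 and at most 5549 CPM in each other library. In whole lung, fewer cells of a type and less RNA per cell cannot be told apart.

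No member passed the test in the comparison of KO with WT. Of all tested genes 2.28% did (426 of 18660, 257 higher and 169 lower in KO). With WT1, WT2 or WT3 left out edgeR called 0 genes, and without KO1 it called 17. Of the 49 members 36 passed the filter on low counts, and the quasi-likelihood test of edgeR called 0 of them (adjusted p up to 0.05); 2.28% of 36 genes is under 1 gene. The unadjusted p was up to 0.05 for 11 members, 10 of them lower and H2-Ke6 higher in KO. With that unadjusted p 27.3% of all tested genes passed, 13.4% lower and 13.9% higher. DESeq2 called 10 members, 9 lower and H2-Ke6 higher, beside 21.0% of all genes. With the 6 libraries kept separate edgeR called 5 members and 18.9% of all genes. With a block for the replicate number added it called B2m and H2-T24 and 6.42% of all genes, although these numbers do not pair the samples. The estimates leaned to one side: 30 of the 36 members had a lower and 6 a higher estimate in KO, with a median log2 fold change of -0.15, while 47.8% of all tested genes had a lower estimate and their median was 0.02. Scaling by library size alone moved the median of all genes to -0.04 and that of the members to -0.20. Without KO1 the median of the members was -0.07, with 28 of 37 estimates lower, and that of all genes -0.02.

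**Figure D1:**
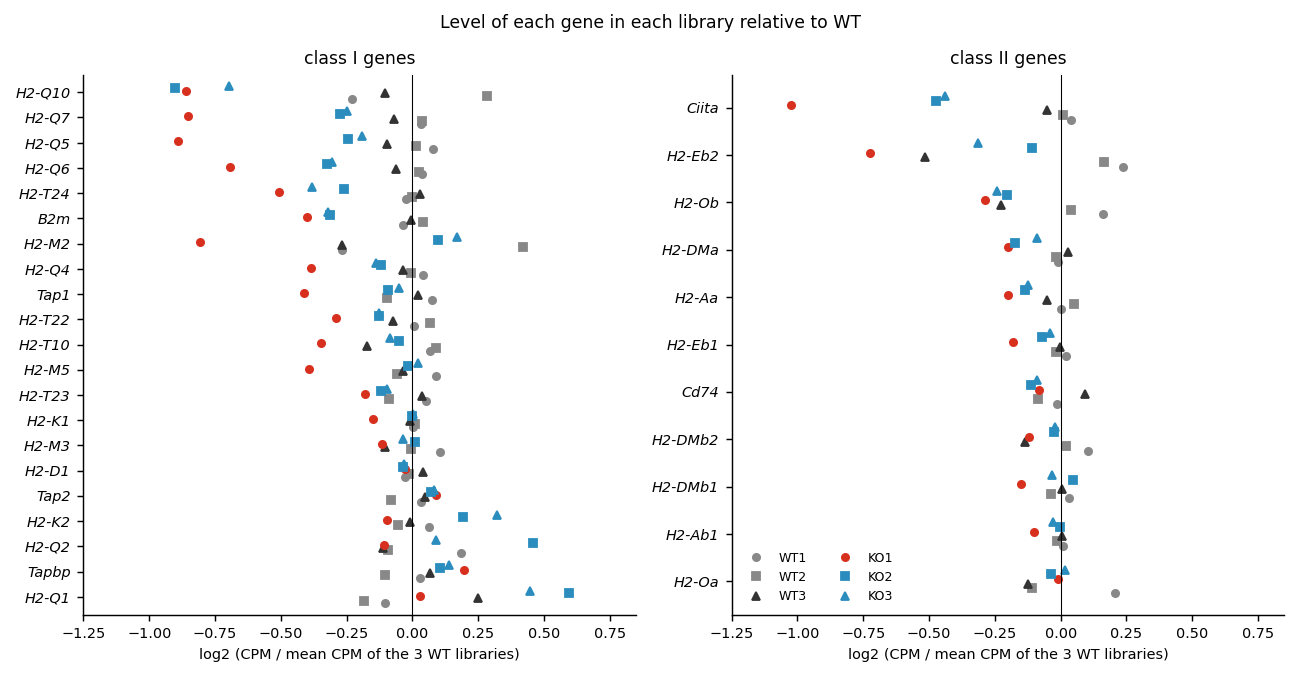
Level of each class I gene (left) and class II gene (right) with a mean of at least 1 CPM, in each library, as log2 of CPM over the mean CPM of the 3 WT libraries. Each symbol is 1 library and genes are in order of the fitted log2 fold change. KO1 lies farthest to the left for most genes, and for H2-Q10, H2-Q6, H2-T24, B2m and Ciita all KO libraries lie below all WT libraries.

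Per length of exon, B2m was the most abundant member. Its level in WT was 1268 CPM per kb, followed by Cd74 with 1067, H2-D1 with 468 and H2-K1 with 383 CPM per kb. The class II chains came next, H2-Eb1 with 249, H2-Ab1 with 202 and H2-Aa with 172 CPM per kb. The non-classical heavy chain genes H2-Q6 and H2-Q4 had 111 and 94.9 CPM per kb, and Tapbp had 88.1 CPM per kb. Ciita, a regulator, had 6.14 CPM per kb, far below H2-Eb1, H2-Ab1 and H2-Aa. In the order of WT levels the ranges of the 3 WT libraries did not overlap among B2m, Cd74, H2-D1, H2-K1, H2-Eb1, H2-Ab1 and H2-Aa. Together the members took 0.754% to 0.893% of the counts of a library.

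**Figure D2:**
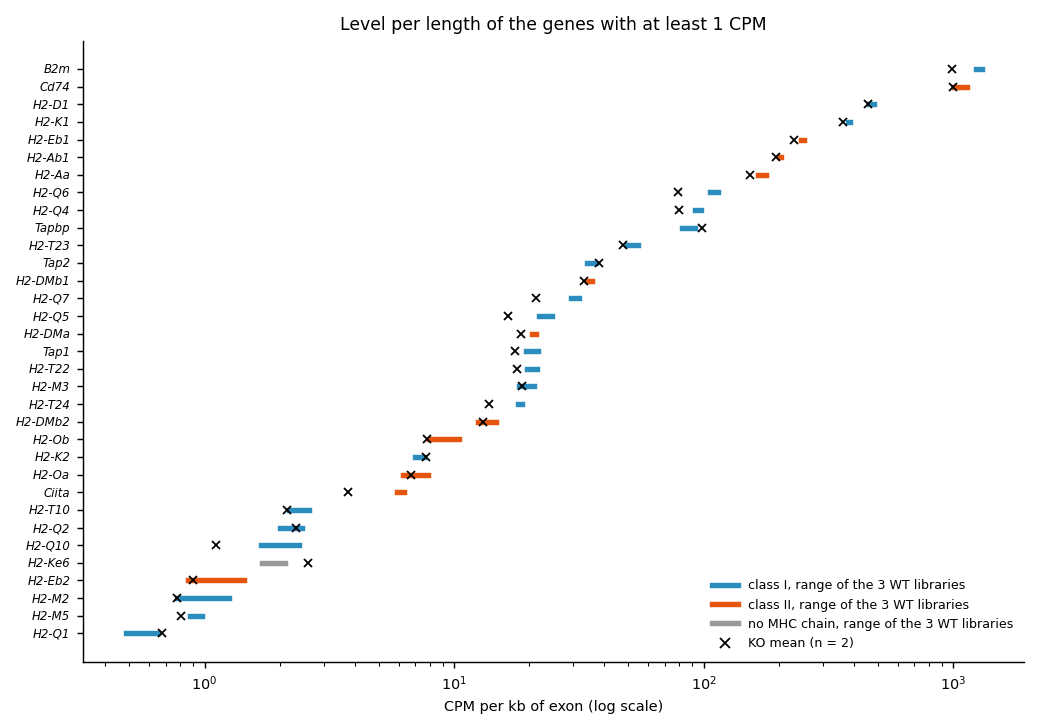
Level of each member with a mean of at least 1 CPM, in CPM per kb of exon on a log scale. Bars span the 3 WT libraries, coloured by class, and crosses give the KO mean (n = 2). B2m and Cd74 are highest, and the KO mean lies left of the WT range for most members, B2m, H2-Q6 and Ciita among those with a wide gap, and right of it for Tapbp, Tap2, H2-K2, H2-Q1 and H2-Ke6.

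Of the 13 members that were not tested, 6 had no count in any library and 11 had at most 3 counts in every library, which is under the floor. The highest count among them was 13, for H2-T3. They were H2-M1, H2-M10.1 to H2-M10.6, H2-M11, H2-T3 and H2-Q3 of class I and H2-Ea-ps, H2-Pa and H2-Pb of class II. H2-Ea-ps, the E alpha sequence of this haplotype, had 1 count in all 6 libraries together. The tested genes H2-M9, H2-Bl and H2-M6-ps stayed under 1 CPM. The counts of H2-M9 were 13, 21 and 10 for WT and 1, 7 and 1 for KO, with an edgeR adjusted p of 0.110.

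The estimates of the classical class I heavy chains were close to 0, and that of their partner B2m was lower in KO. H2-K1 (chr17:33996017-34000347, minus strand) was at 1126, 1132 and 1119 CPM in WT1, WT2 and WT3 and at 1013, 1123 and 1127 CPM in KO1, KO2 and KO3. KO1 alone was low, and KO2 and KO3 lay within or beside the WT range. H2-K1 had a log2 fold change of -0.07 (SE 0.07, 95% interval -0.25 to 0.11, edgeR adjusted p 0.579), which was -0.0026 without KO1.

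H2-D1 (chr17:35262730-35267499, plus strand), the other classical heavy chain of this haplotype, was at 1183, 1198 and 1242 CPM in WT and 1183, 1177 and 1180 CPM in KO. The genotypes overlapped and KO varied little. Its log2 fold change was -0.03 (SE 0.05, 95% interval -0.17 to 0.11, edgeR adjusted p 0.786), which was -0.01 without WT3.

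B2m (chr2:122147686-122153083, plus strand) was at 1065, 1120 and 1087 CPM in WT and 827, 877 and 873 CPM in KO. All KO libraries were below all WT libraries, as they were for 20.7% of all tested genes. WT had a mean of 1091 ± 27.7 CPM (SD, n = 3), and KO a mean of 851 ± 34.4 CPM (SD, n = 2). The fitted log2 fold change was -0.35 (SE 0.06, 95% interval -0.51 to -0.20), which is 21.7% lower, and the edgeR adjusted p of 0.0535 missed the threshold narrowly. Over 15 other settings the log2 fold change of B2m stayed between -0.46 and -0.32, and its adjusted p between 1.42e-09 and 0.206, so that the call depends on the setting and the direction did not. The adjusted p was 0.00903 with the 6 libraries kept separate.

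The ratio of B2m to the sum of H2-K1 and H2-D1, which needs no scaling between libraries, was 0.461, 0.481 and 0.460 in WT and 0.376, 0.381 and 0.378 in KO. KO1, which stood apart for many other genes, lay with KO2 and KO3 in this ratio. This and the other ratios given here were chosen after the values of their genes were seen, so they describe the libraries and carry no test.

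**Figure D3:**
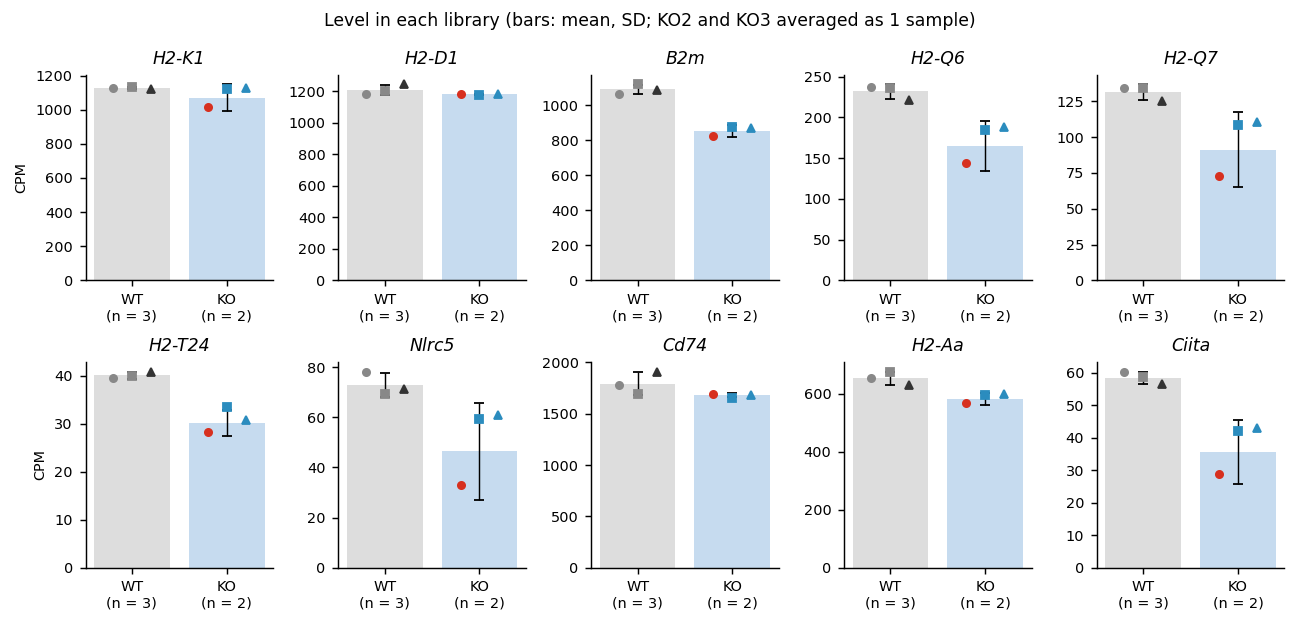
Level in CPM of 10 genes in each library, by genotype. Bars are means with SD, n = 3 for WT and n = 2 for KO with KO2 and KO3 averaged as 1 sample, and points are single libraries. B2m is lower in all KO libraries while H2-K1 and H2-D1 overlap, and KO1 is the lowest library for H2-Q6, H2-Q7, Nlrc5 and Ciita.

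The sequences before the start of H2-K1, H2-Q6 and B2m show the elements through which class I genes are known to be controlled, and are given because the estimates of these genes lay apart. They are the 200 bases before the annotated start, 5' to 3' on the gene's strand, from RefSeq on GRCm38.p6. Capitals mark matches to the class I enhancer A (a site for NF-kB and related factors, the run that opens with 4 G in H2-K1 and H2-Q6), to the interferon response element (the run of 10 capitals in B2m) and to the Y box core (GATTGG, the inverted CCAAT box), searched on both strands.
H2-K1 (chr17:34000348-34000547, minus strand): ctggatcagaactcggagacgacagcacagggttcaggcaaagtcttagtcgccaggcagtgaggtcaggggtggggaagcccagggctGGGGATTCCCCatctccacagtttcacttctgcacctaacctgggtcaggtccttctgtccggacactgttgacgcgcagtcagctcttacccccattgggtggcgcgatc
H2-Q6 (chr17:35424650-35424849, plus strand): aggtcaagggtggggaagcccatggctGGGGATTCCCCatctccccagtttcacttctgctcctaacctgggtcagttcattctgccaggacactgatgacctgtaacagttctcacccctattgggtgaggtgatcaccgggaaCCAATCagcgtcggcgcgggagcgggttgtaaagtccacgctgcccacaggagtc
B2m (chr2:122147487-122147686, plus strand): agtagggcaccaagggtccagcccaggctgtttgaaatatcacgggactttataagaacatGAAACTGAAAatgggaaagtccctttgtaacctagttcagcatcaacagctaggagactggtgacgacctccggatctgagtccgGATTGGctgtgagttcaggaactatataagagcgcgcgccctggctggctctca

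Enhancer A lay 111 to 101 bases before the start of H2-K1 and 173 to 163 bases before that of H2-Q6. It was found in 10 of 32851 RefSeq promoter windows (250 bases before to 50 after a start), or 0.0304%, among them those of H2-K1, H2-D1 and H2-Q6. H2-K1 and H2-Q6 share these letters. Their log2 fold changes were -0.07 and -0.49, and a part of the element in these values was not tested. The interferon response element, searched as a single fixed pattern, was in 3.44% of all windows. Among the members it was in those of B2m, H2-T22 and H2-T23. Other forms of this element were not searched and would stay in lower case in the printed bases. The windows without a match, those of H2-K1, H2-D1 and H2-Q6 included, therefore cannot be said to lack an interferon element. The Y box core was found in 16.1% of all windows. The RefSeq table held 34 of the 49 members. The Y box core was in the windows of 18 of the 25 class I members it held, H2-K1 included, where it lies outside the bases printed. A match is a description of letters, not a site in use.

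The Q genes lie together beside H2-D1 and belong to the non-classical heavy chain genes. Not all need encode a chain: H2-Q5 is annotated as a polymorphic pseudogene and H2-Q3 as an unprocessed pseudogene. From H2-Q4 to H2-Q10 all KO libraries were below all WT libraries for each of the 5 genes, as for 20.7% of all tested genes, while H2-Q1 and H2-Q2 of the same cluster overlapped. H2-Q6 was at 238, 236 and 222 CPM in WT and 143, 185 and 188 CPM in KO. KO1 was the lowest, and KO2 and KO3 lay between it and WT. H2-Q6 had a log2 fold change of -0.49 (SE 0.13, unadjusted p 0.0114, edgeR adjusted p 0.0917), which was -0.32 without KO1.

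H2-Q7, which with H2-Q6 is part of the Qa-2 antigen family, was at 134, 135 and 125 CPM in WT and 72.8, 109 and 111 CPM in KO. KO1 was again the lowest, and the log2 fold change of -0.52 (SE 0.18, edgeR adjusted p 0.153) was -0.26 without KO1. H2-Q5 was at 39.4, 37.7 and 34.9 CPM in WT and 20.1, 31.5 and 32.7 CPM in KO, with a log2 fold change of -0.51 (edgeR adjusted p 0.198), which was -0.22 without KO1. H2-Q4 was at 253, 246 and 241 CPM in WT and 189, 227 and 224 CPM in KO, with a log2 fold change of -0.25 (edgeR adjusted p 0.173), which was -0.13 without KO1.

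H2-Q10, known as a secreted class I molecule made mainly in liver, was low in lung, at 7.29, 10.4 and 7.95 CPM in WT and 4.71, 4.58 and 5.27 CPM in KO. Here KO1 did not stand apart from KO2 and KO3. The log2 fold change was -0.82 (SE 0.18, 95% interval -1.29 to -0.36, unadjusted p 0.00606, edgeR adjusted p 0.0718), the lowest estimate among members of at least 1 CPM. It stayed between -0.92 and -0.66 over the 15 other settings, with an adjusted p from 6.73e-04 to 0.193.

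H2-Q1 and H2-Q2, at the other end of the Q cluster, had higher estimates in KO. Their log2 fold changes were 0.31 (edgeR adjusted p 0.465) and 0.11 (edgeR adjusted p 0.746), with overlapping libraries. Without KO1 they were 0.52 and 0.29, and that of H2-Q2 turned negative without KO2. The sum of H2-Q4, H2-Q5, H2-Q6, H2-Q7 and H2-Q10 over the sum of H2-K1 and H2-D1 was 0.291, 0.285 and 0.267 in WT and 0.196, 0.242 and 0.243 in KO. Of the 100-base stretches of the longest transcript, 13.0% of H2-Q6, 13.5% of H2-Q7, 12.9% of H2-Q5 and 8.80% of H2-Q10 occur exactly in another gene. The gene that shared most was H2-Q7 for H2-Q5, H2-Q6 and H2-Q10, and H2-Q10 for H2-Q7. For H2-Q4 the share was 14.6%, most of it with Gm11131 (12.3%), whose exons overlap those of H2-Q4. Reads from all these stretches could not be assigned with certainty. For B2m, H2-K1 and H2-T24 the share was 0%, and for H2-D1 4.64%.

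The T genes H2-T24, H2-T23, H2-T22 and H2-T10 lie farther along the chromosome. H2-T24 was at 39.5, 40.1 and 40.9 CPM in WT and 28.3, 33.5 and 30.8 CPM in KO. WT varied by little and all KO libraries were below it. H2-T24 had a log2 fold change of -0.40 (SE 0.07, 95% interval -0.59 to -0.22, unadjusted p 0.00257, edgeR adjusted p 0.0560). It lay between -0.48 and -0.31 over the 15 other settings, and 6 of them called it.

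H2-T23 encodes Qa-1, which shows leader peptides of other class I chains to receptors of natural killer cells. It was at 158, 143 and 156 CPM in WT and 134, 140 and 142 CPM in KO, with a log2 fold change of -0.14 (edgeR adjusted p 0.269). H2-T22, a ligand of some gamma delta T cells, was at 70.6, 73.6 and 66.8 CPM in WT and 57.5, 64.4 and 64.4 CPM in KO, with a log2 fold change of -0.20 (edgeR adjusted p 0.173), which was -0.13 without KO1. The genotypes did not overlap for H2-T23 or H2-T22, but their nearest libraries were close. H2-T10, annotated as a polymorphic pseudogene and close to H2-T22 in sequence, had a log2 fold change of -0.20 (edgeR adjusted p 0.449), which was -0.07 without KO1. Of the stretches of H2-T22 and H2-T10, 38.1% and 29.7% occur in other genes. Most of these lie in genes with overlapping exons, A930015D03Rik for H2-T22 (30.5%) and BC023719 for H2-T10 (25.3%). H2-M3, which binds formylated peptides, had -0.06 (edgeR adjusted p 0.713), a value that moved to -0.0012 without WT1, -0.11 without WT3 and -0.0138 without KO1. H2-M5, H2-M2 and H2-K2, the last annotated as a transcribed pseudogene, had -0.18, -0.25 and 0.10, each with overlapping libraries. Without KO1 these became -0.00013, 0.13 and 0.25, and H2-M2 was 0.0092 without WT2.

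**Figure D4:**
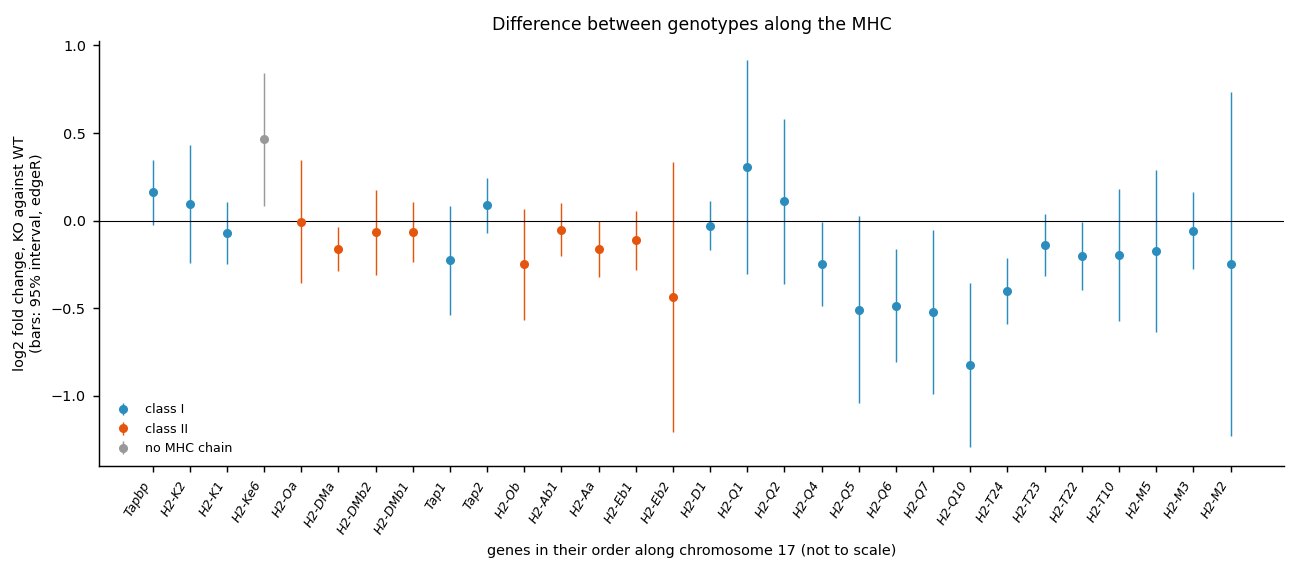
Fitted log2 fold change of KO against WT, with its 95% interval (edgeR), for the chromosome 17 members of at least 1 CPM in their order along the chromosome. Blue marks class I, orange class II and grey H2-Ke6. The estimates of H2-Q4 to H2-Q10 and of H2-T24 lie below 0, those of Tapbp, H2-K2, Tap2, H2-Q1, H2-Q2 and H2-Ke6 above it, and H2-K1 and H2-D1 are close to it.

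The loading genes had estimates in both directions. Tapbp was at 326, 298 and 335 CPM in WT and 366, 343 and 352 CPM in KO, each KO library being above each WT library, as for 20.0% of all tested genes. Its log2 fold change was 0.16 (SE 0.07, edgeR adjusted p 0.230), and 0.11 without WT2. Tap2 was at 139, 129 and 141 CPM in WT and 145, 143 and 144 CPM in KO (log2 fold change 0.09, edgeR adjusted p 0.411, and 0.04 without WT2). Tap1, its partner in the transporter, was at 119, 106 and 115 CPM in WT and 85.1, 106 and 109 CPM in KO. Only KO1 lay outside the WT range of Tap1, and the log2 fold change of -0.23 (edgeR adjusted p 0.302) was -0.07 without KO1.

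In all, 0 of the 24 tested class I members were called by edgeR, 8 had an unadjusted p up to 0.05, all of them lower in KO, against 13.4% of all tested genes, and DESeq2 called 6 (B2m, H2-Q4, H2-Q6, H2-Q7, H2-Q10 and H2-T24), all lower. By DESeq2, 10.4% of all genes were called lower. With the 6 libraries kept separate edgeR called B2m, H2-Q6, H2-Q10 and H2-T24 lower, beside 9.07% of all genes. The median log2 fold change of the 24 was -0.19, and without KO1 that of class I was -0.07. All KO libraries were below all WT libraries for 10 of the 24, against 20.7% of all tested genes, and above them for Tapbp and Tap2, against 20.0%. KO1 was the lowest library for 15 of the 21 class I members of at least 1 CPM. The summed level of class I members was 4962 to 4989 CPM in WT, 4322 CPM in KO1 and 4629 and 4646 CPM in KO2 and KO3.

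Class II genes of high level had small estimates, and their coactivator had a larger one. The invariant chain Cd74 was at 1776, 1688 and 1911 CPM in WT and 1694, 1658 and 1684 CPM in KO. The genotypes overlapped, and the log2 fold change was -0.09 (SE 0.07, 95% interval -0.27 to 0.10, edgeR adjusted p 0.504), which was -0.04 without WT3 and -0.13 without WT2. H2-Ab1, the A beta chain, was at 523, 514 and 521 CPM in WT and 484, 519 and 510 CPM in KO, with a log2 fold change of -0.05 (edgeR adjusted p 0.622), which was -0.02 without KO1.

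H2-Aa, the A alpha chain, was at 654, 676 and 631 CPM in WT and 568, 595 and 599 CPM in KO. H2-Aa was lower in all KO libraries, with a fitted log2 fold change of -0.16 (SE 0.06, unadjusted p 0.0507, edgeR adjusted p 0.184). H2-Eb1, the E beta chain, was at 491, 478 and 483 CPM in WT and 427, 460 and 471 CPM in KO. The libraries did not overlap, but KO3 lay close to WT2, and the log2 fold change of -0.11 (edgeR adjusted p 0.337) was -0.06 without KO1. H2-Eb2 was low, at 4.89, 4.65 and 2.90 CPM in WT and 2.51, 3.85 and 3.34 CPM in KO (log2 fold change -0.43, edgeR adjusted p 0.414, and -0.21 without KO1).

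Ciita (chr16:10480059-10528418, plus strand), the master coactivator of class II genes, was at 60.2, 58.9 and 56.6 CPM in WT and 28.8, 42.2 and 43.2 CPM in KO. Every KO library was below every WT library, and KO1 was far below KO2 and KO3. WT had a mean of 58.6 ± 1.86 CPM (SD, n = 3), and KO a mean of 35.7 ± 9.84 CPM (SD, n = 2). The fitted log2 fold change was -0.71 (SE 0.18, 95% interval -1.16 to -0.26, unadjusted p 0.00972), which is 38.7% lower, and it missed the threshold with an edgeR adjusted p of 0.0860. Without KO1 it was -0.46 (adjusted p 0.0868). With WT3 and KO1 both left out it was -0.48 with an adjusted p of 0.0106, so that Ciita was called there. Over the 15 other settings the adjusted p lay between 9.18e-04 and 0.229.

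The ratio of Ciita to the chains it controls was compared as a description. Ciita over the sum of H2-Aa, H2-Ab1 and H2-Eb1 was 0.0361, 0.0353 and 0.0346 in WT and 0.0194, 0.0268 and 0.0273 in KO. The ratio of H2-Aa to H2-Ab1, chains that pair with each other, was 1.25, 1.31 and 1.21 in WT and 1.17, 1.15 and 1.18 in KO. The groups do not overlap in either ratio, and KO1 was low for the former only.

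The promoters of class II genes carry the X and Y boxes, where the RFX, CREB and NF-Y factors assemble and recruit Ciita. Those of H2-Aa, H2-Eb1 and H2-Ob are given to show these elements in an alpha chain, a beta chain and an H2-O chain gene. They are again the 200 bases before the start from RefSeq on GRCm38.p6. Capitals mark the Y box core and, where present, a longer X box pattern (CTAGNAACNNATGATGC) that was chosen after these sequences were seen.
H2-Aa (chr17:34287824-34288023, minus strand): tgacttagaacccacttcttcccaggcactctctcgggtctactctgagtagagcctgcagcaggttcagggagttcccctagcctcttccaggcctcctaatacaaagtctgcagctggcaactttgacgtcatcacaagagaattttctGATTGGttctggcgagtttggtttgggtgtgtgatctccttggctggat
H2-Eb1 (chr17:34305667-34305866, plus strand): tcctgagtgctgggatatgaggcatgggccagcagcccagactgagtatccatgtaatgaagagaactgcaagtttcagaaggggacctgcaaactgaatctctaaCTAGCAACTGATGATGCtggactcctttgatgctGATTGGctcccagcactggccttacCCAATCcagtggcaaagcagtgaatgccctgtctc
H2-Ob (chr17:34238705-34238904, plus strand): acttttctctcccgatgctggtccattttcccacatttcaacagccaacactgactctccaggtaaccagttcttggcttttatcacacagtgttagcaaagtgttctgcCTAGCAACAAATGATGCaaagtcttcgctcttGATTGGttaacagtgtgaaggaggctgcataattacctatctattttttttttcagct

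The Y box core lay 49 to 44 bases before the start of H2-Aa, 60 to 55 before that of H2-Eb1, which has another on the opposite strand, and 58 to 53 before that of H2-Ob. All 8 class II members in the RefSeq table had it, against 16.1% of all windows. The longer X box pattern was in 3 of the 32851 windows, or 0.00913%, those of H2-Eb1, H2-Ob and H2-DMb1. A shorter X box part (ACAGATG) was in 5.01% of windows and, among the members, in those of H2-Aa, H2-Oa and H2-M10.2. In H2-Aa it lies outside the bases printed.

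The genes of peptide exchange had small estimates. H2-DMa was at 71.5, 71.02 and 73.4 CPM in WT and 62.7, 63.9 and 67.6 CPM in KO. All KO libraries were lower, and the log2 fold change was -0.16 (SE 0.05, unadjusted p 0.0207, edgeR adjusted p 0.119). The beta chain genes H2-DMb1 and H2-DMb2, which share 13.7% and 12.9% of their stretches with each other, had log2 fold changes of -0.06 and -0.07 (edgeR adjusted p 0.601 and 0.704). Without KO1 that of H2-DMb1 turned to 0.0063, and that of H2-DMb2 was -0.0085 without WT1, -0.0254 without KO1 and -0.13 without WT3. Of the H2-O chains, which hold H2-DM in check, H2-Ob was at 56.1, 51.5 and 42.9 CPM in WT and 41.1, 43.5 and 42.4 CPM in KO, WT3 lying among the KO libraries (log2 fold change -0.25, edgeR adjusted p 0.267, and -0.16 without WT1). H2-Oa had a log2 fold change of -0.01 (edgeR adjusted p 0.984), which turned to 0.11 without WT1.

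Of the 11 tested class II members edgeR called 0. Ciita and H2-DMa had an unadjusted p of at most 0.05 and were lower, against 13.4% of all tested genes, and DESeq2 called 3 (Ciita, H2-Aa and H2-DMa), all lower, beside 10.4% of all genes. All 11 estimates were lower in KO, with a median log2 fold change of -0.11, and with the 6 libraries kept separate edgeR called Ciita alone, beside 9.07% of all genes. Every KO library was below every WT library for 4 of the 11 (H2-Aa, H2-Eb1, H2-DMa and Ciita), against 20.7% of all tested genes. KO1 was the lowest library for 8 of the 11. The summed level of class II members was 3633 to 3810 CPM in WT and 3393 to 3510 CPM in KO.

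H2-Ke6, an alternative symbol for Hsd17b8, an enzyme of steroid and fatty acid metabolism, was at 3.45, 3.0 and 2.80 CPM in WT and 4.08, 3.90 and 4.97 CPM in KO. Its log2 fold change was 0.47 (unadjusted p 0.0251, edgeR adjusted p 0.130). Its exons overlap those of Gm20427 over 86.4% of their length, so that its counts are uncertain.

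Further genes of the pathway were taken from a list of 30 that holds no member. edgeR called 0 of the 30, 12 had an unadjusted p of at most 0.05, 6 higher and 6 lower in KO, and DESeq2 called 13, 6 higher and 7 lower. Of all tested genes 27.3% had such an unadjusted p and DESeq2 called 21.0%. Among the class I regulators, Nlrc5, the coactivator of class I genes, was at 78.3, 69.2 and 71.2 CPM in WT and 32.9, 59.3 and 61.0 CPM in KO. The genotypes did not overlap, and KO1 lay far below KO2 and KO3. Nlrc5 had a log2 fold change of -0.64 (edgeR adjusted p 0.199), and of -0.28 without KO1. Irf1, which acts on class I and Nlrc5 promoters, was at 164 to 170 CPM in WT and 163 to 174 CPM in KO (log2 fold change 0.01, edgeR adjusted p 0.952).

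Genes of class I peptide supply also had estimates in both directions. Erap1, which trims peptides in the endoplasmic reticulum, was at 74.8, 77.9 and 71.9 CPM in WT and 58.4, 61.1 and 59.01 CPM in KO. All KO libraries lay below WT and close together, and the log2 fold change was -0.33 (unadjusted p 0.00152, edgeR adjusted p 0.0510). The immunoproteasome subunit Psmb10 was at 73.3, 67.5 and 69.8 CPM in WT and 84.8, 81.3 and 81.3 CPM in KO, a log2 fold change of 0.25 (edgeR adjusted p 0.0740). Its partner subunits Psmb8 and Psmb9 had 0.00 and -0.12 (edgeR adjusted p 0.981 and 0.494), and without KO1 0.05 and -0.01. With an offset for gene length Erap1 was at -0.20 and Psmb10 at 0.14. DESeq2 called both genes, as did edgeR with the 6 libraries kept separate, beside 21.0% and 18.9% of all genes.

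In the class II arm, Ifi30, a reductase that opens disulfide bonds of antigens in lysosomes, was at 67.5, 68.1 and 75.3 CPM in WT and 90.8, 90.3 and 86.8 CPM in KO. Each KO library was above each WT library, and the log2 fold change of 0.36 had an edgeR adjusted p of 0.0538. Ctss, the protease that cuts the invariant chain, had a log2 fold change of -0.13 (edgeR adjusted p 0.242). Rfx5, a DNA-binding partner of Ciita, had -0.00 (edgeR adjusted p 0.994), and its sign changed with the setting.

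Marker genes of the cells that carry class II were examined beside these values. Of the 14 B cell markers 13 were found in the table. They summed to 775 to 904 CPM in WT and 699 to 900 CPM in KO, with Ighm making up the largest share. Without Ighm, a choice made after the values were seen, the other 12 summed to 366 to 426 CPM in WT and to 310 to 329 CPM in KO. edgeR called 0 of the 13, 7 had an unadjusted p of at most 0.05, all lower in KO, and for 9 all KO libraries were below all WT libraries, against 13.4% and 20.7% of all tested genes. Ms4a1, which encodes CD20, was at 31.8, 36.8 and 34.2 CPM in WT and 18.2, 25.5 and 25.5 CPM in KO (log2 fold change -0.64, edgeR adjusted p 0.0892). Without KO1, the lowest library, the log2 fold change of Ms4a1 was -0.43 (edgeR adjusted p 0.119). It was called with the 6 libraries kept separate (edgeR adjusted p 0.0377, and 0.0445 with the replicate block), with DESeq2 (adjusted p 0.0019) and with WT3 and KO1 both left out (edgeR adjusted p 0.0365). Pax5, a B cell transcription factor, had a higher estimate (0.33, edgeR adjusted p 0.235).

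The 14 dendritic cell markers summed to 246 to 263 CPM in WT and 234 to 253 CPM in KO, with 0 called by edgeR, against 2.28% of all tested genes. Of the 14, 1, Clec10a, was lower with an unadjusted p up to 0.05, against 13.4% of all tested genes, and for 4 all KO libraries were below all WT libraries, against 20.7%. The 14 alveolar macrophage markers summed to 480 to 562 CPM in WT and 490 to 553 CPM in KO, and the 10 interstitial macrophage markers to 1321 to 1449 CPM in WT and 1195 to 1262 CPM in KO. Mrc1, which stands in both macrophage lists, was called lower in KO (log2 fold change -0.56, edgeR adjusted p 0.0474) and was the only call in either list. Of the alveolar macrophage markers 5 were lower and 3 higher in KO with an unadjusted p up to 0.05. Of the interstitial ones 3 were lower and 0 higher. All KO libraries were below all WT libraries for 5 alveolar and 4 interstitial markers, and above them for 3 and 0. The shares of all tested genes were 13.4% lower and 13.9% higher by unadjusted p, and 20.7% below and 20.0% above. The 12 alveolar type 2 markers summed to 27467 to 29252 CPM in WT and 38110 to 40325 CPM in KO, and edgeR called 4 of them higher (Sftpa1, Sftpb, Sftpc and Sftpd), against 2.28% of all tested genes. The unadjusted p was up to 0.05 for 10 of the 12, all higher in KO, against 13.9% of all tested genes, and for 11 the lowest KO library exceeded the highest WT library, against 20.0%. The calls of Mrc1 and of these genes were lost when WT1, WT2 or WT3 was left out, since no gene was called then. The 10 T cell markers summed to 55.0 to 75.8 CPM in WT and 75.5 to 77.8 CPM in KO, and the 10 capillary endothelium markers to 4499 to 4815 CPM and 4572 to 5552 CPM. edgeR called 0 in either list, and the unadjusted p was up to 0.05 for 1 T cell marker, higher in KO, and for 6 endothelial markers, 5 higher and 1 lower. None of these markers was at or under the floor in every library. The part of these cell types in the differences of the MHC genes was not tested.

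The 20 interferon-stimulated genes, 1 of which is also in the pathway list, summed to 683 to 721 CPM in WT, 536 CPM in KO1 and 698 and 697 CPM in KO2 and KO3. KO1 was thus low for this list, as it was for Nlrc5, Ciita, H2-Q4, H2-Q5, H2-Q6 and H2-Q7. edgeR called Ifit2 alone, against 2.28% of all tested genes, and not with WT1, WT2 or WT3 left out (lower, log2 fold change -0.33, adjusted p 0.0496), and the unadjusted p was up to 0.05 for 3 genes higher and 4 lower in KO, against 13.9% and 13.4% of all tested genes. Igtp had a log2 fold change of -0.57 (edgeR adjusted p 0.101) and Isg15 one of 0.53 (edgeR adjusted p 0.155).

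**Figure D5:**
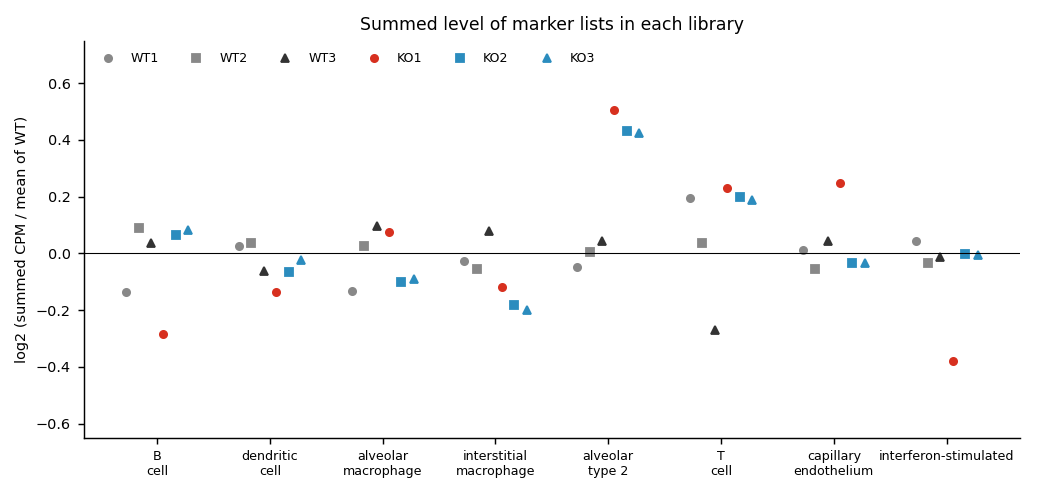
Summed CPM of each marker list in each library, as log2 of the sum over the mean sum of the 3 WT libraries. Each symbol is 1 library. Alveolar type 2 sums lie above WT in all KO libraries, interstitial macrophage sums below, and the interferon-stimulated sum is low in KO1 alone.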

How the data were processed

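Per the labels and the study's methods, lung RNA was extracted with Trizol and RNeasy columns, and the authors trimmed reads (Trimmomatic 0.36), aligned them to GRCm38 (STAR 2.5.3a), used Picard 2.9.0 and counted reads per gene (HTSeq 0.6.0). The deposited table holds raw counts. The annotation release and use of strand were not given in the sources used here. Floors cover counting error only, while the 95% intervals of fold changes include the spread between samples.

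Counts were tested in R 4.3.3 with edgeR 4.0.16 (filterByExpr, TMM, glmQLFit, glmQLFTest), two-sided, with Benjamini-Hochberg adjustment over all 18660 tested genes. DESeq2 1.42.0 was an alternative. KO2 and KO3 were summed, because their variance relative to counting was 1.71 for genes of 20 to 200 counts in the pair and grew to 3.33 for those above 20000, while in the other pairs of a genotype it was 1.86 to 3.79 and 36.0 to 156. Lengths and positions come from GENCODE release M21. Named genes follow a rule by role: classical chains, B2m, loading genes, class II genes, Ciita, every further member of at least 1 CPM, and 9 pathway genes. H2-M9 and the genes named from marker and interferon lists were chosen after their values were seen. The members and lists were chosen with earlier results of these data known.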

Additional observations from a re-analysis of the deposited data

How the results depend on the processing

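Results were recomputed under 15 other settings. The class I count of 0 called became 4 with the 6 libraries kept separate, 2 with that fit and a replicate block, 2 with a minimum of 10 counts per library, 6 with DESeq2, 3 with WT3 and KO1 both left out, and 0 to 1 when 1 library was left out. The class II count of 0 became 1, 3 and 1 with separate libraries, DESeq2 and WT3 and KO1 left out. The pathway count of 0 became 8 with separate libraries, 3 with the replicate block, 1 without a filter, 4 with at least 10 counts, 13 with DESeq2 and 3 with WT3 and KO1 left out. Over all genes the count of 426 became 3402, 1157 (replicate block), 937 (at least 10 counts), 3919 (DESeq2), 0 (gene length offset) and 2256 (WT3 and KO1 left out), and 0 to 418 with 1 library left out: 0 without WT1, WT2 or WT3 and 17 without KO1. The cause was not tested. The share of higher calls was 60.3%, and 38.2% with scaling by library size alone (306 calls).

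Of 42 named genes, 35 kept their direction in all 15 settings, B2m, H2-T24, H2-Q6, H2-Q10 and Ciita among them. H2-Q2, H2-M2, H2-DMb1, H2-Oa, Irf1, Psmb8 and Rfx5 did not. When 1 library was left out, the log2 fold change ranged from -0.0038 to 0.29 for H2-Q2, from -0.37 to 0.13 for H2-M2, from -0.0879 to 0.0063 for H2-DMb1, from -0.0678 to 0.11 for H2-Oa, from -0.0099 to 0.0311 for Irf1, from -0.021 to 0.0493 for Psmb8 and from -0.0375 to 0.13 for Rfx5. With WT3 and KO1 left out, H2-M2 was 0.0153, H2-DMb1 0.0076 and Rfx5 0.12. By library size alone Irf1 was -0.048 and Psmb8 -0.0511. Psmb8 was -0.000295 with RLE factors, -0.0013 with at least 10 counts and -0.0139 with the length offset, where Rfx5 was 0.0745. Rfx5 was 0.0405 with separate libraries and 0.0356 with the replicate block. The cause was not tested. The replicate numbers do not pair the samples: same-numbered libraries had correlations of -0.65, 0.77 and -0.83 in their deviations.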
